A study of Mus musculus with 36 samples.

Results

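A solitary CpG is taken here as an autosomal CpG of the count table that has no other CpG of the table within 500 bp on either side and at least 10 counts in each of the 24 animals. There were 78876 such CpGs among 14726597 autosomal CpGs with that depth, or 0.536%. The table held 18887127 autosomal CpGs in all, of which 104136 were solitary before the depth requirement. Whole-genome bisulfite sequencing was performed on the livers of 24 mice in 8 groups of 3. The parents were C57BL/6N (B6) and C3H/HeN (C3) sires and dams, paired at 10 weeks of age. Their offspring were virgin sons and daughters of B6 dams and C3 sires (B6C3F1) or of C3 dams and B6 sires (C3B6F1). All animals were killed at 20 weeks, the dams after weaning at week 16. No group was treated, no allele was altered, and sires and dams had bred whereas the F1 animals had not. Parents and offspring came from the same nuclear families, so they are related animals, and sex, breeding and pregnancy cannot be told apart among the parents. Whole liver was used, so a change in the mix of cell types cannot be told apart from a change within a cell type. The tissue label was not checked against expression markers, since only methylation was analysed here.

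In mammals, cytosine methylation sits almost wholly on CpG dinucleotides and is copied to the new strand after replication by the maintenance enzyme DNMT1 with its partner UHRF1. Maintenance works cooperatively over neighbouring CpGs, and CpGs that stand alone, above all those with A or T on both sides (WCGW, where W is A or T), are the ones known to lose methylation in late-replicating, lamina-bound domains of dividing cells. Because CpGs are depleted by deamination outside CpG islands, solitary CpGs lie in AT-rich, gene-poor sequence and seldom in promoters.

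The sequences below are those of some of the single CpGs named in the comparisons. They are shown because the bases around each CpG, and the strain variants among them, are part of its description. Those of the other named CpGs are not shown. Each is 62 bases of the mm9 plus strand with the CpG in capitals at positions 31 and 32, counted from the 5′ end.
Acer3 intron: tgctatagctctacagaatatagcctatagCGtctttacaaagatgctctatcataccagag
Grm7 intron: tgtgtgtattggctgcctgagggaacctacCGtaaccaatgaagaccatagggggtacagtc
Acoxl intron: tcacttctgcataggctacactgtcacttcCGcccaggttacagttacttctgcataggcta
Sntg1 flank: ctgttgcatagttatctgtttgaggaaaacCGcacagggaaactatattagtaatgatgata
Fam164a flank: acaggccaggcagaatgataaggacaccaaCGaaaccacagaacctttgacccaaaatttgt
A530084C06Rik flank: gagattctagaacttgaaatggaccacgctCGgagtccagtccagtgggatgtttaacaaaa
Lingo2 flank: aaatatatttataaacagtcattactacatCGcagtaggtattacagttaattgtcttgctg
Fam84b flank: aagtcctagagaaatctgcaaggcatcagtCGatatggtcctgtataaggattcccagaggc
Cyp2c69 intron: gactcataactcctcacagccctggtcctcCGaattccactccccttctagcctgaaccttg
Astn2 intron: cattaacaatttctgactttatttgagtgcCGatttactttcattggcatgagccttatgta
Lmo3 intron: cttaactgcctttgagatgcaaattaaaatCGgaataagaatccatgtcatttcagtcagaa
Tet2 flank: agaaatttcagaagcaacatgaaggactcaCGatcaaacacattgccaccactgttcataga
A flank is named for the nearest protein-coding gene, which may lie far away.

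The nearest listed CpG lay at a median of 601 bp, and 3354 solitary CpGs (4.25%) had none within 1000 bp. Another CG of mm9 that the table did not list lay within 500 bp of 11337 (14.4%). By their methods the authors kept CpGs whose context held in mm9 and in both strains, so such a neighbour may be missing from a strain. The table does not meet this throughout, since by the deposited variant list 15 solitary CpGs, and 1545 of all CpGs tested, are a CG in 1 strain's sequence only. The surroundings (500 bp to each side) held 37.2% G and C, against 44.3% for all CpGs tested. Of the solitary CpGs, 76.3% were intergenic, 22.8% intronic and 0.858% exonic with regard to protein-coding genes, against 52.5%, 40.2% and 7.29% of all CpGs tested. They lay at a median of 150340 bp from the nearest start site, and 499 of them lay within 1000 bp of one. WCGW made up 41.2% of solitary CpGs, against 29.6% of all CpGs tested. Depth did not set them apart, at a mean of 23.1 to 38.2 counts per animal against 22.2 to 36.8 over all CpGs tested.

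Solitary CpGs were less methylated than the genome at large in every animal. Weighted methylation (methylated counts over all counts, summed over the CpGs) was 73.6% ± 0.984 (SD, n = 24), against 78.5% ± 0.480 over all CpGs tested. The gap (solitary minus all) ranged from −5.80 to −3.73 percentage points, and the highest solitary level, 75.6%, lay under the lowest level of all CpGs, 77.4%. The error from counting alone was at most 0.0290 points for an animal's solitary level. By distance to the nearest listed CpG, the level over 24 animals was 78.8% at 1 to 10 bp, 79.3% at 11 to 50 bp, 77.1% at 51 to 100 bp, 78.5% beyond that and up to 250 bp, and 75.9% from there up to 500 bp. The classes with no neighbour within 250 bp were thus the lowest, while the order among closer ones was uneven. The median CpG fell more steadily over the 6 classes, at 91.5%, 88.2%, 84.3%, 84.8%, 81.5% and 78.4%, and 10.9% of CpGs at 1 to 10 bp were under 20% methylated. Nor was there a downward step at the border, since CpGs in the last 50 bp inside 500 bp had 73.6% and those in the first 50 bp beyond it 74.8%. Solitary CpGs with none within 1000 bp had 71% ± 1.03 (SD, n = 24).

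**Figure D1:**
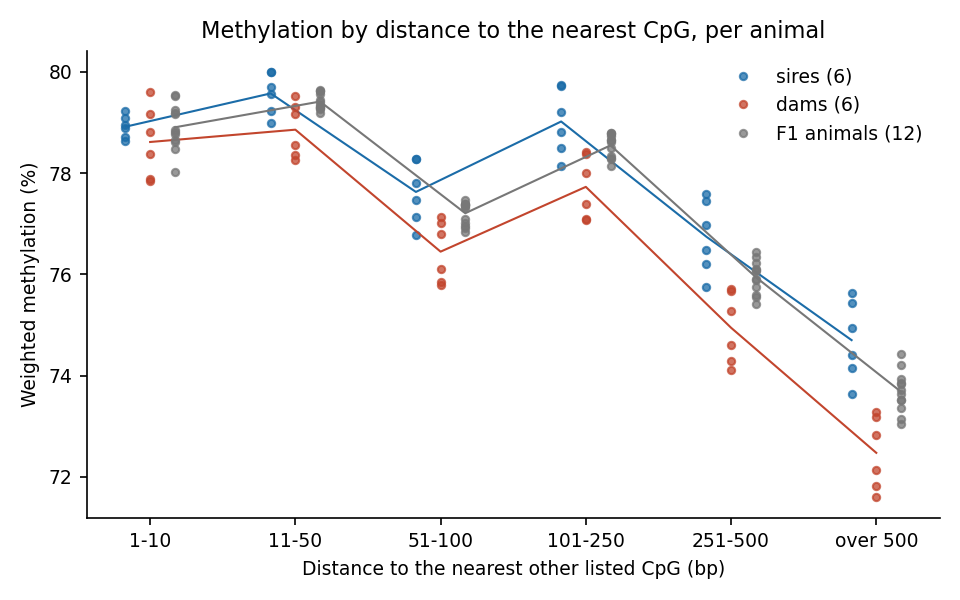
Weighted methylation (y axis, %) by distance to the nearest other listed CpG (x axis, bp) in 6 sires, 6 dams and 12 F1 animals, a point per animal and a line through the means. The solitary class, over 500 bp, lies lowest in all 3 sets, at 74.7% in sires, 72.5% in dams and between 73.1% and 74.4% in F1 animals.

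The lower level came from intermediate CpGs rather than from unmethylated ones. Over the summed counts of all animals, 52.3% of solitary CpGs were between 20% and 80% methylated, against 28.5% of all CpGs tested, whereas 1.18% were under 20%, against 5.56%. Only 6.98% were over 95%, against 20.2%. The median solitary CpG stood at 78.4% and the interquartile range was 63.3% to 88.6%. No solitary CpG was unmethylated or methylated in all of its counts, whereas 35603 of all CpGs tested had no methylated count. Of the 928 solitary CpGs under 20%, 17 (1.83%) lay within 1000 bp of a start site, against 0.618% of the solitary CpGs at 20% or more, and 73.5% were intergenic. Their median distance to a start site was 95464 bp, against 150931 bp. WCGW made up 74.1% of them. For reference, CpGs with a neighbour at 1 to 10 bp that were under 20% methylated had a level of 5.00% ± 0.248 (SD, n = 24), against 14.1% ± 0.891 at the solitary CpGs under 20%.

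The adjacent bases divided the solitary CpGs further than their isolation did. With A or T on both sides they had 65.6% ± 1.25, with 1 such base 77.7% ± 0.901, and with C or G on both sides (SCGS, where S is C or G) 85.3% ± 0.543 (SD, n = 24 each). The 3 ranges over animals were 62.8% to 68.0%, 75.8% to 79.4% and 84.2% to 86.3%, with no overlap. At all other CpGs the same 3 classes had 74.0%, 80% and 81.8%. WCGW minus SCGS was −19.7 ± 0.787 points at solitary CpGs and −7.82 ± 0.494 points at the others (SD, n = 24), and the gap was wider at solitary CpGs in each animal. In the summed level, solitary minus other CpGs was −8.47 ± 0.641 points in WCGW and 3.43 ± 0.423 points in SCGS. The direction in SCGS turned on the measure, since the median solitary SCGS CpG was lower, at 89.2% against 92.2%, while 0.282% of solitary and 7.59% of other SCGS CpGs were under 20% methylated. Within a class the 16 combinations of adjacent bases ranged from 65.3% to 65.9% with A or T on both sides, from 76.9% to 79.3% in mixed contexts and from 83.6% (CCGG, animals 82.2% to 84.5%) to 87.3% (GCGC, animals 86.4% to 88.4%) with C or G on both sides, where these last did not overlap.

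**Figure D2:**
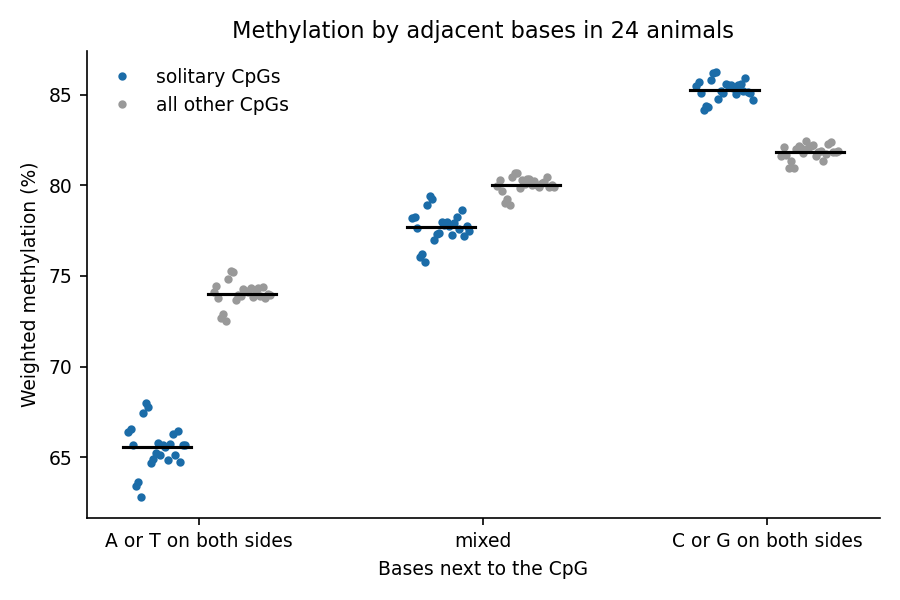
Weighted methylation (y axis, %) by the bases next to the CpG (x axis) for solitary CpGs and for all other CpGs, a point per animal (24) and a black bar at the mean. Solitary CpGs spread from 65.6% to 85.3% over the 3 contexts and the other CpGs from 74.0% to 81.8%.

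Solitary CpGs within introns of protein-coding genes had 77.2% ± 0.728 and intergenic ones 72.6% ± 1.07 (SD, n = 24). The gap was 4.62 ± 0.4 points, against 2.33 ± 0.274 points between introns and intergenic sequence at all other CpGs. It held within the WCGW class, at 70.1% in introns and 64.2% between genes, and within the SCGS class, at 86.8% and 84.7%. The mixed class was not split in this way.

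Genes with 20 or more solitary CpGs between their ends numbered 154, with a median gene level of 72.6% over the 24 animals. They are long genes, at a median of 635499 bp. The 5 lowest were Gpr158 (an orphan receptor of neurons) at 61.1%, Lrfn5 (a synaptic adhesion protein) at 61.6%, Cdh12 (a brain cadherin) at 61.7%, Luzp2 at 61.9% and Gria4 (a subunit of AMPA-type glutamate receptors) at 62.7%. The 5 highest were Gtdc1 at 92.7%, Lrba at 92.0%, Fut8 (the enzyme that adds core fucose to glycoproteins) at 90.8%, Scaper at 89.5% and Tbc1d5 (a regulator of endosomal Rab7) at 89.1%. The lowest and highest sets were far apart in single animals, since no animal exceeded 68.0% at Luzp2 or fell under 85.5% at Tbc1d5. Of 54 listed symbols of long neuronal genes, 36 had enough solitary CpGs. Of these, 28 lay below the median gene and 8 at or above it, from Cdh12 at 61.7% to Grm8 (a metabotropic glutamate receptor) at 77.0%. The list was chosen with earlier results of these data known. It leaves out other neuronal genes, such as Gpr158 at 61.1% and Rims1 at 79.5%, so the counts hold for the list alone. Of 60 listed hepatocyte-expressed genes only Dpyd (the first enzyme of pyrimidine breakdown) had enough, at 84.7%. With a minimum of 5 solitary CpGs, chosen after the data were seen, the median of 876 genes was 78.3%. Then 49 of 51 listed neuronal genes lay below it.

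Over the autosomes the solitary level ranged from 69.6% on chromosome 7 to 75.8% on chromosome 13. In bins of 1 Mb, 2394 bins held a solitary CpG and 1323 held 20 or more, which together held 68943 of the solitary CpGs. The median bin stood at 73.3% and the interquartile range was 69.7% to 78.5%. In 1048 of the 1323 bins (79.2%) the solitary CpGs were below the other CpGs of the same bin, whose median was 77.9%. Across bins the level of solitary CpGs went up with that of the other CpGs (Spearman's rho 0.68, Pearson's r 0.62) and with the number of listed CpGs per bin (rho 0.47). These are descriptions over 1323 bins that share the same 24 libraries. The lowest bins were chr5:11000001-12000000, with 23 solitary CpGs at 51.8%, and chr7:69000001-70000000, with 71 at 55.3%. The first holds several predicted genes of multicopy families, where reads may be shared between copies. The second holds Ndn, Magel2, Mkrn3 and Peg12, genes known to be expressed from the paternal copy alone, and its other CpGs stood at 70.3%. The third, chr18:37000001-38000000, holds the protocadherin clusters, with 41 solitary CpGs at 55.3% and its other CpGs at 60.3%. The highest were chr13:36000001-37000000 with Lyrm4, Fars2 and F13a1 at 91.7%, chr3:86000001-87000000 with Lrba at 91.6% and chr18:25000001-26000000 with Fhod3 and Celf4 at 91.2%. In these 3 the other CpGs stood lower than the solitary ones, at 83.1%, 83.2% and 77.0%.

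Single solitary CpGs varied more between animals than CpGs at large. The SD over 24 animals had a median of 7.59 points, against 5.89 points for all CpGs tested, and was under 10 points at 83.2% of solitary CpGs, against 91.1%. Within groups of 3 the root mean square SD was 7.75 points, of which the counting error at these depths accounts for 7.57. What was left beyond counting error came to 1.66 points, against 1.35 points over all CpGs tested. The larger spread was not confined to solitary CpGs. CpGs in the last 50 bp inside 500 bp had a median SD over 24 animals of 7.53 points, with 83.65% under 10 points. Beyond counting error they had 1.665 points. In the 8 groups taken one by one the spread beyond counting error ranged from 1.44 to 1.85 points at solitary CpGs and from 1.26 to 1.44 over all CpGs tested. It was larger at solitary CpGs than over all CpGs tested in each group. Among CpGs between 20% and 80% methylated the order was the other way round, with 2.01 points at solitary CpGs and 2.10 at the others, whereas among those of 80% and over it was 1.14 and 0.882 points.

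Sires and dams, which differ in sex and in what breeding meant for them, were separated by the summed solitary level. Sires had 74.2%, 74.4% and 73.6% in B6 and 74.9%, 75.6% and 75.4% in C3. Dams had 71.8%, 72.1% and 71.6% in B6 and 72.8%, 73.2% and 73.3% in C3. Every sire lay above every dam, by 2.23 points on average, and the gap was 2.22 points in B6 and 2.24 points in C3. Over all CpGs tested sires lay 0.844 points above dams, and there sires and dams overlapped across the strains. The separation was not confined to solitary CpGs, since CpGs with the nearest neighbour beyond 250 and up to 500 bp also showed no overlap, with a gap of 1.80 points, and those in the last 50 bp of that class a gap of 2.08 points. In F1 animals sons had 73.9% ± 0.403 and daughters 73.5% ± 0.345 (SD, n = 6 each), a difference of 0.365 points with overlapping animals. Dams minus daughters was −1.03 points and sires minus sons 0.834 points, in both cases with overlap. No test was run on these levels over the members as a whole.

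**Figure D3:**
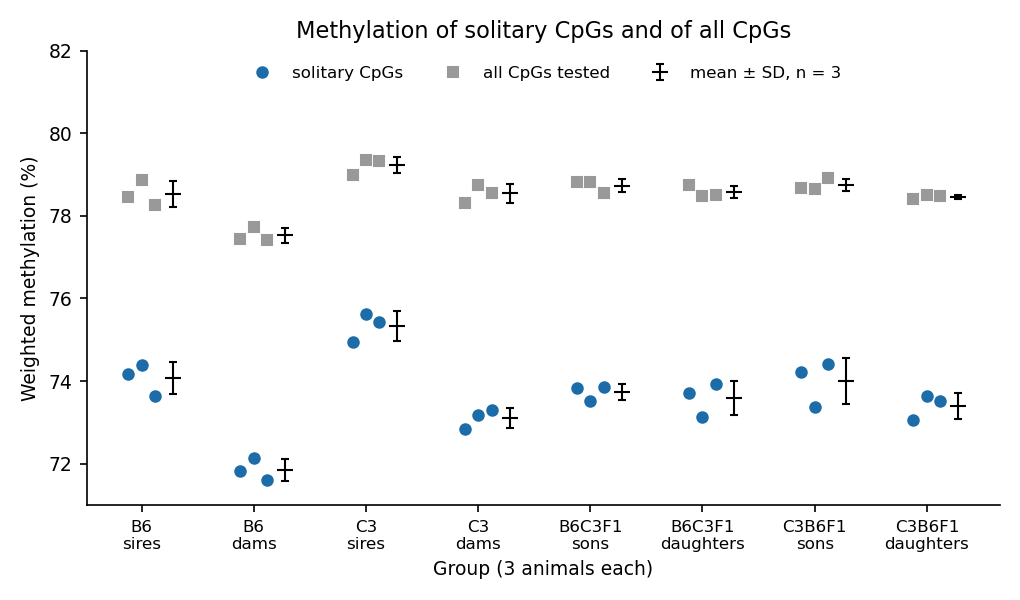
Weighted methylation (y axis, %, from 71 to 82) in each group of 3 animals (x axis), for solitary CpGs (circles) and all CpGs tested (squares), a point per animal with the mean ± SD beside. The solitary levels of sires, 73.6% to 75.6%, lie above those of dams, 71.6% to 73.3%, with the F1 animals at 73.1% to 74.4%.

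The sire and dam gap differed between classes of solitary CpGs. It was 2.85 points at WCGW CpGs and 1.09 points at SCGS CpGs, and 2.44 points between genes and 1.53 points in introns, with overlapping animals at SCGS CpGs and in introns. The order was the same at the other CpGs, with 1.34 and 0.333 points for WCGW and SCGS and 1.16 and 0.502 points between genes and in introns. It was 1.79 points at solitary CpGs under 20%, 3.18 points at solitary CpGs of 20% to 50%, 3.07 points at those of 50% to 80% and 1.20 points at those over 80%, the last with overlapping animals. Sires exceeded dams on each of the 19 autosomes, by 1.23 to 2.47 points, and sons exceeded daughters on each, by 0.204 to 0.4995 points. In limma on the counts summed per bin, 958 of 1323 bins (72.4%) passed an adjusted p under 0.05, 952 of them higher in sires and 6 higher in dams. For the other CpGs of the same bins the share was 90.6% at a median of 137658 counts per bin and animal against 1477. The median difference was 2.29 points at solitary CpGs and 1.42 points at the others. The bins with the widest gap were chr12:65000001-66000000 with Fscb, at 70.6% ± 1.38 in sires and 65.2% ± 1.01 in dams, and chr6:10000001-11000000, without protein-coding genes, at 65.8% ± 2.42 and 60.6% ± 1.57 (SD, n = 6). In the first the lowest sire had 68.6% and the highest dam 66.3%. The opposite direction led with chr4:60000001-61000000, which holds the Mup genes for the major urinary proteins, male-biased products of the liver, at 68.4% ± 3.10 in sires and 71.9% ± 1.57 in dams. This is a multicopy cluster in which reads may be shared. Next was chr6:37000001-38000000 with Akr1d1, a steroid reductase of bile acid synthesis, at 82.8% ± 1.68 and 86.0% ± 1.02 (SD, n = 6).

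**Figure D4:**
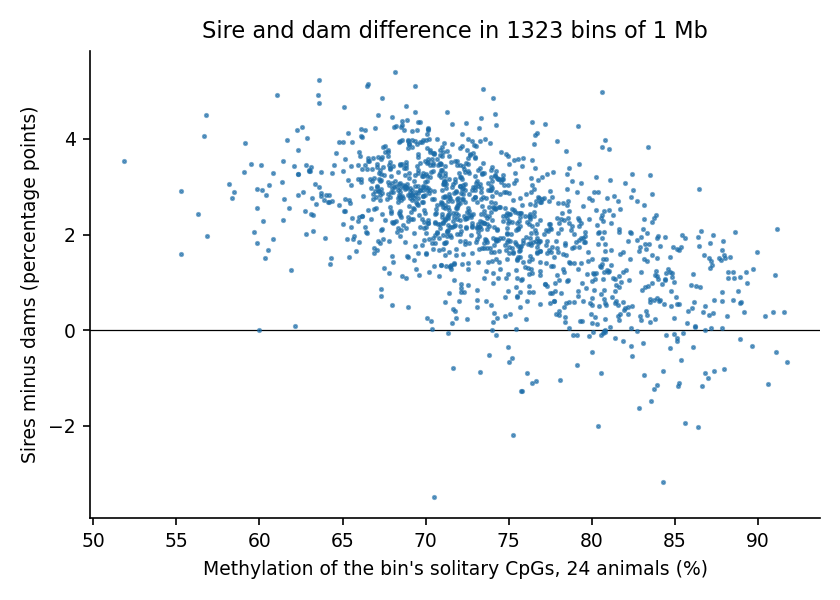
Sires minus dams (y axis, percentage points) against the methylation of the bin's solitary CpGs over 24 animals (x axis, %), a point per bin of 1 Mb with 20 or more solitary CpGs. Sires were above dams in 1260 of 1323 bins, and the difference was smaller in more methylated bins (Spearman's rho −0.57, a description over bins).

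Single CpGs were called differentially methylated (DMC) by a beta-binomial Wald test at p under 1e-05. Between sires and dams 133 solitary CpGs (0.169%) were called, against 0.215% of all CpGs tested. Among CpGs of 20% to 80% methylation the shares were 0.31% and 0.666%. Of the 133, 36 were higher in sires (background 0.0727%) and 97 in dams (background 0.142%), whereas the summed level was higher in sires. The F1 animals, which took no part in these calls, gave different results for the 2 directions. All 97 CpGs higher in dams were also higher in daughters than in sons, by a median of 22.4 points against 29.0 points in the parents, and 49 of them were called there too. Of the 36 higher in sires, 20 were higher in sons, and 4 were called. The counts by direction alone over all CpGs tested are not reported here. Over the list of 36 the median difference was 2.86 points in the F1 animals, against 25.0 points in the parents. The 2 directions differed likewise over all CpGs tested, where 939 of the 10706 calls higher in sires were also called in the F1 animals, and the rest of the 11836 shared calls came from the 20964 higher in dams. Over these 36 CpGs dams had 41.1% ± 1.79, sires 66.6% ± 2.64, sons 62.2% ± 0.796 and daughters 57.1% ± 2.44 (SD, n = 6; the parents' values chose the CpGs).

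The CpG higher in sires with the widest difference lay at chr15:60532271-60532272, 118280 bp from Fam84b. Sires ranged from 78.6% to 94.4% (median 81.8%) and dams from 25.0% to 49.1% (median 42.5%), a difference of 46.2 ± 4.01 points (SE). Daughters ranged from 69.6% to 89.1% and sons from 80.4% to 97.4%, so dams stood apart from the other 3 groups. The second lay in an intron of Cyp2c69, a cytochrome P450 gene of a family of close paralogs that may share reads, at chr19:39940838-39940839. Sires ranged from 51.4% to 77.8% and dams from 10.3% to 47.4%, and here sons, at 56.0% to 76.9%, and daughters, at 15.6% to 43.5%, stood apart as the parents did. Its sequence carries the strain variant C21T (B6 base, position, C3 base). In the other direction led a CpG in an intron of Astn2, a neuronal adhesion protein, at chr4:65538005-65538006. Sires ranged from 9.52% to 36.4% (median 23.5%) and dams from 71.4% to 86.5% (median 78.5%), a difference of −54.1 ± 4.47 points. Next was a CpG in an intron of Lmo3, a LIM-domain transcription cofactor, at chr6:138411961-138411962. Its sires ranged from 14.3% to 35.1% and dams from 67.7% to 82.6%, its sons from 10.7% to 46.2% and its daughters from 69.0% to 83.0%.

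Between sons and daughters, both virgin, 85 solitary CpGs (0.108%) were called against 0.119% of all CpGs tested, and 0.204% against 0.385% among CpGs of 20% to 80% methylation. Sons were higher at 6 (background 0.0109%) and daughters at 79 (background 0.108%). In the parents, which took no part in these calls, 6 of the 6 and 78 of the 79 had the same direction. The matching shares over all CpGs tested are not reported here. The calls with the same direction in both generations numbered 53, which is 39.8% of the parents' list and 62.4% of the F1 list, against 37.4% and 67.7% over all CpGs tested. Males were higher at 4 of the 53, and at 939 of the 11836 shared over all CpGs, so the solitary CpGs were close to the background in both respects. The widest difference in favour of sons lay at chr3:133453773-133453774, 246419 bp from Tet2. Sons ranged from 82.5% to 97.0% (median 91.7%) and daughters from 32.3% to 52.5% (median 43.2%), a difference of 47.5 ± 4.03 points, while sires had 88.0% to 96.0% and dams 43.2% to 75%. Of those higher in daughters the Lmo3 CpG led, with −47.8 ± 4.26 points, followed by chr19:26471118-26471119, 208532 bp from Smarca2, at 17.7% to 37.9% in sons and 71.4% to 85.3% in daughters. No bin of 1 Mb was called by limma at solitary CpGs (0 of 1323, with 132 at an unadjusted p under 0.05), against 8.39% for the other CpGs of the same bins. The median of sons minus daughters over bins was 0.39 points at solitary CpGs and 0.30 points at the others, which held more counts.

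Dams against daughters compares females that had or had not bred, and also inbred with hybrid animals. At single CpGs 13 solitary CpGs (0.0165%) were called, against 0.0447% of all CpGs tested (0.0315% against 0.126% at 20% to 80% methylation), 2 higher in dams (background 0.00302%) and 11 in daughters (background 0.0417%). The Fam84b CpG described above led, at −46.4 ± 3.99 points. Next was chr8:76478584-76478585, 601145 bp from Large, with 18.2% to 50% in dams and 66.7% to 88.9% in daughters. Sires there had 58.3% to 87.0% and sons 65.4% to 78.6%. The only CpG named with dams higher lay in an intron of Dhx9, an RNA helicase, at chr1:155330828-155330829, with 44.8% to 79.3% in dams and 15.6% to 42.9% in daughters. Over bins of 1 Mb the median of dams minus daughters was −0.996 points at solitary CpGs and −0.745 points at the other CpGs. The other CpGs had a median of 137658 counts per bin and animal, against 1477. In bins, limma called 127 of 1323 (9.60%), 126 higher in daughters, against 78.1% for the other CpGs of the same bins. This count depended on single animals, from 0.983% without the third B6 dam and 1.74% without the second C3B6F1 daughter to 8.77% without the first C3B6F1 daughter. It also moved with the setting, to 26.7% of bins with at least 50 solitary CpGs and 3.02% with at least 20 counts per CpG. The widest called difference was at chr5:68000001-69000000 with Atp8a1 (a phospholipid flippase), at 70.9% ± 0.484 in dams and 74.9% ± 1.20 in daughters (SD, n = 6), where no dam reached the lowest daughter. Second was chr15:60000001-61000000, which holds the Fam84b CpG, at 77.7% ± 1.20 and 81.3% ± 0.843. The 1 bin higher in dams was chr6:121000001-122000000 with A2m and Mug1, protease inhibitors made by the liver, at 77.0% ± 2.33 and 74.8% ± 1.24. There the C3 dams had 78.2% to 79.7% and the B6 dams 74.4% to 75.5%, within the range of the daughters (73.5% to 76.6%).

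Sires against sons gave 2 called solitary CpGs (0.00254%), both higher in sires, against 0.00186% of all CpGs tested. These 2 differed by 16.1 and 23.1 points. With Benjamini-Hochberg adjustment over the whole table the Wald test left 0 of the solitary CpGs and 0 of all CpGs tested. At an unadjusted p under 0.05 were 4474 solitary CpGs (5.67%), against 4.96% of all CpGs tested. The fit by limma per CpG also required a difference of at least 20 points, so 1 of the 2 could not pass it. It gave 0 solitary CpGs, against 0.000625% of all CpGs tested. Without the minimum difference, 4588 solitary CpGs (5.82%) had an unadjusted p under 0.05 in limma, against 5.44% of all CpGs tested. Without single animals the Wald share ran from 0% (without the first C3 sire, the second B6C3F1 son or the second C3B6F1 son) to 0.0038%. The 1 whose animals did not overlap lay in an intron of Il1f6, a cytokine of the interleukin-1 family, at chr2:24079005-24079006, with 86.7% to 100% in sires and 65.7% to 86.1% in sons. Over bins the median of sires minus sons was 0.8445 points at solitary CpGs and 0.405 points at the other CpGs, which held more counts. In bins 20 of 1323 (1.51%) were called, all higher in sires, against 44.6% for the other CpGs of the same bins. Leaving out 1 animal moved this between 0.0756%, without the second B6 sire, and 2.49%, without the third C3B6F1 son, and the same settings gave 5.53% and 0.604%. The widest were chr1:120000001-121000000 with Clasp1 and Gli2, at 69.5% ± 0.961 in sires and 66.0% ± 1.84 in sons, and chr1:161000001-162000000 with Tnr, at 78.6% ± 1.59 and 75.1% ± 1.68 (SD, n = 6).

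The 2 directions of the cross had nearly the same summed level. B6C3F1 animals had 73.7% and C3B6F1 animals 73.7% at solitary CpGs, with overlapping animals. Only 4 solitary CpGs (0.00507%) were called, all higher in C3B6F1, against 0.00397% of all CpGs tested, and leaving out 1 animal gave 0.00254% to 0.00761%. Over all CpGs tested 278 were higher in B6C3F1 and 306 in C3B6F1. Of the 4, 2 passed an adjusted p under 0.05 in the Wald test. With its minimum difference of 20 points, limma per CpG called 0 solitary CpGs, against 0.000435% of all CpGs tested. Without that minimum, 4226 solitary CpGs (5.36%) had an unadjusted p under 0.05 in limma, against 5.72% of all CpGs tested. The 1 without overlap lay at chr4:37240854-37240855, 342074 bp from Lingo2, with 56.5% to 74.1% in B6C3F1 and 76.9% to 96.8% in C3B6F1, a difference of −25.3 ± 4.79 points. No bin was called by limma (0 of 1323, with 79 at an unadjusted p under 0.05), against 1.06% for the other CpGs of the same bins. The median of B6C3F1 minus C3B6F1 over bins was −0.0465 points at solitary CpGs and 0.102 points at the others, which held more counts.

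The strains differed at far more solitary CpGs. B6 minus C3 was −1.27 points in sires and −1.25 points in dams, in each sex without overlap. C3 was higher on 18 of 19 autosomes, the exception being chromosome 19 at 0.00988 points the other way. Over all CpGs tested B6 minus C3 was −0.852 points. Over bins of 1 Mb the median of B6 minus C3 was −1.34 points at solitary CpGs and −0.86 points at the other CpGs, which held more counts. In bins limma called 528 of 1323 (39.9%), 487 higher in C3 and 41 in B6, against 86.1% for the other CpGs of the same bins. The widest were chr1:8000001-9000000 with Sntg1 (a cytoskeletal adaptor), where 79 solitary CpGs stood at 68.4% ± 1.19 in B6 and 81.1% ± 1.74 in C3 (SD, n = 6), and chr8:22000001-23000000 with the alpha-defensin genes, at 61.1% ± 2.02 and 72.8% ± 2.09. The second is a multicopy cluster. In the other direction they were chr1:173000001-174000000 with the Slamf receptor genes, at 83.3% ± 1.16 in B6 and 72.0% ± 1.98 in C3, and chr14:12000001-13000000 with Ptprg, at 86.3% ± 1.47 and 80.2% ± 1.69. The Ptprg bin has only 25 solitary CpGs. One of them is chr14:12263756-12263757, named below, with a mean of 93.9% in B6 and 1.24% in C3. The bin was not tested without that CpG. In the 12 F1 animals these 4 bins had 74.2%, 67%, 77.1% and 83.5% on average, between the strains.

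Of single solitary CpGs 693 (0.879%) were called between the strains, against 0.653% of all CpGs tested. Of these 303 were higher in B6 (background 0.287%) and 390 in C3 (background 0.366%). Where mm9 holds no other CG within 500 bp, listed or not, 0.469% were called, while the background was not restricted in this way. Of the 67527 such CpGs without a variant on the CpG, 0.118% were called higher in B6 and 0.333% higher in C3. An unlisted CG of mm9 lay within 500 bp of 69.6% of the CpGs called higher in B6 and 42.3% of those higher in C3, against 14.4% of all solitary CpGs. A CG that mm9 does not hold was not counted here. By the variant list, sorted after the data were seen, only a CG of B6 alone lay within 500 bp of 26.7% and 10.5%. Only a CG of C3 alone lay there in 7.26% and 30.8%. Among all solitary CpGs these shares were 6.24% and 6.16%. Among CpGs of 20% to 80% methylation solitary CpGs were called less often than all CpGs, at 1.46% against 1.91%. Chosen in the sires alone, 313 solitary CpGs were called, and 308 of them had the same direction in the dams. The matching counts over all CpGs tested are not reported here. Over the list of 313 the median difference was 29.8 points in the dams, against 36.1 points in the sires. The F1 animals lay between the strains at all 303 CpGs higher in B6 and at 388 of the 390 higher in C3. Choosing CpGs for a wide difference between the strains makes a value between them likely. The matching share over all CpGs tested is not reported here. Over the 303 CpGs B6 had 76.0% ± 0.678, C3 47.2% ± 1.04, B6C3F1 62.1% ± 0.613 and C3B6F1 62.5% ± 1.02. Over the 390 they had 50.8% ± 1.46, 76.7% ± 1.42, 62.3% ± 0.781 and 63.0% ± 0.609 (SD, n = 6; the parents' values chose the CpGs). The F1 crosses thus stood near the middle whichever strain was the mother.

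Strain calls went with sequence variants (single-base differences between the local B6 and C3 genomes). Of solitary CpGs with a variant 1 to 10 bp away 7.73% were called, with one at 11 to 100 bp 2.28%, beyond that and up to 500 bp 1.00%, and with none within 500 bp 0.186%. The same shares over all CpGs tested were 4.71%, 2.21%, 1.02% and 0.222%. All 15 solitary CpGs that carry a variant on the CpG itself were called higher in B6, as were 1525 of the 1545 (98.7%) over all CpGs tested. There only 1 strain's sequence holds a CG, so base and methylation cannot be told apart, and without these 15, a choice made after the data were seen, the share called was 0.860%. Solitary CpGs were also sorted, after the data were seen, by CGs that 1 strain holds and the other lacks because of a single-base variant. A CG of B6 alone within 50 bp gave 651 solitary CpGs, of which 8.29% were called higher in B6 and 0.461% higher in C3. A CG of C3 alone within 50 bp gave 609, of which 10.2% were called higher in C3 and 0.657% higher in B6. The strain that held the additional neighbour was thus the one with more methylation in most calls. Over all CpGs tested the same classes gave 2.33% and 1.01%, and 3.35% and 0.763%. With the strain-specific CG at 51 to 100 bp the shares at solitary CpGs fell to 0.698% and 0.524% for a CG of B6, and to 1.86% and 0.676% for a CG of C3, against 0.797% and 1.26%, and 1.07% and 0.922%, over all CpGs tested.

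**Figure D5:**
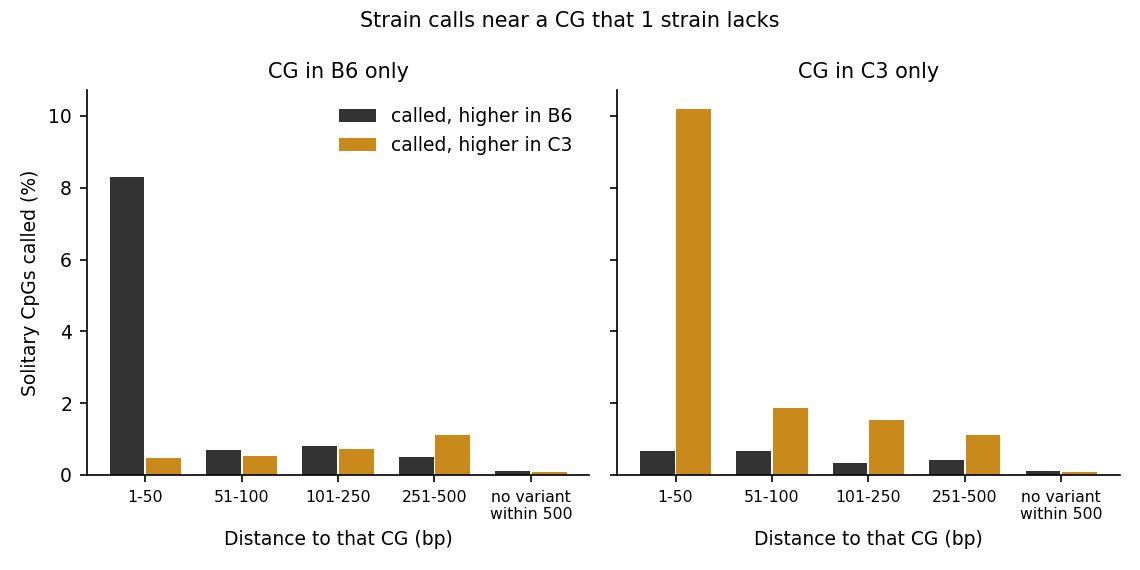
Share of solitary CpGs called between the strains (y axis, %) by distance to the nearest CG that only B6 (left) or only C3 (right) holds (x axis, bp), with dark bars for calls higher in B6 and light bars for calls higher in C3. Within 50 bp 8.29% were called higher in B6 beside a CG of B6 and 10.2% higher in C3 beside a CG of C3, and with no variant within 500 bp 0.0989% and 0.0871%.

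A variant in the base next to the CpG went the same way as the adjacent-base classes. Where B6 had C or G and C3 had A or T, 18 of 118 solitary CpGs (15.3%) were called higher in B6 and 0 higher in C3, with a median difference of 5.96 points. In the opposite case 23 of 107 (21.5%) were called higher in C3 and 1 higher in B6, with a median of −10.6 points. Leaving out CpGs with a strain-specific CG within 500 bp, 6 of 47 and 7 of 44 were called in these directions, and 0 of either in the other. Over all CpGs tested this restricted class gave 6.07% and 10.2%, and 0.465% and 0.428% the other way. Without that restriction the 2 cases gave 8.76% and 12.7% in those directions over all CpGs tested.

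Of the 5 CpGs with the widest difference in favour of B6, 2 carry a variant on the CpG: that in an intron of Grm7 (a metabotropic glutamate receptor) at chr6:111304232-111304233, with G32A, and that in an intron of Acoxl (a relative of acyl-CoA oxidases) at chr2:127722279-127722280, with C31T. At Grm7 the B6 animals had 92.0% to 100% and the C3 animals 0% to 6.67%. At Acoxl the values were 83.7% to 96.2% and 0% to 3.70%. The CpG in an intron of Acer3, an alkaline ceramidase, at chr7:105370902-105370903 had 93.3% to 100% in B6 and was at 0% in all 6 C3 animals, with no listed variant within 684 bp. F1 animals there ranged from 47.6% to 82.8%. The CpG at chr1:7904047-7904048, 447509 bp from Sntg1, had 85.2% to 92.7% in the B6 animals, 0% to 3.45% in the C3 animals, and carries G56A in the window. The fifth, at chr14:12263756-12263757 and 122290 bp from Ptprg, had 88.4% to 97.0% in the B6 animals against 0% to 4.76% in the C3 animals. Whether these near-zero C3 levels come from a base or copy difference that the variant list does not hold was not tested.

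The widest differences in favour of C3 were less extreme. At chr5:44525513-44525514, 31761 bp from the predicted gene Gm16401, the B6 animals had 14.8% to 37.2% (median 26.3%) and the C3 animals 84.6% to 100% (median 93.3%), a difference of −65.6 ± 3.95 points. At chr3:7495384-7495385, 8042 bp from Fam164a and with T46A in the window, the B6 animals had 6.67% to 24.5% and the C3 animals 53.3% to 90.5%. At chr13:31580605-31580606, 67398 bp from A530084C06Rik, the B6 animals had 27.3% to 48.4% and the C3 animals 80% to 95.8%. Its window carries G28A and G52T, and the first of these removes in C3 the CG that B6 has 4 bp upstream, so this CpG went against the direction of most calls near a strain-specific CG. At chr6:93619740-93619741, 5709 bp from Magi1, the values were 0% to 24.5% in B6 against 59.0% to 92.6% in C3. In an intron of Disp2, at chr2:118627659-118627660, they were 27.8% to 50% against 85.7% to 100%. In all 5 the mean of the F1 animals lay between those of the strains.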

How the data were processed

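Livers of 24 mice were profiled by whole-genome bisulfite sequencing. Per the submitters' processing notes and methods, the authors aligned reads to mm9 with Bismark 0.7.8 over Bowtie 0.12.8, removed duplicates and kept, by their methods, CpGs whose context was found in mm9 and both strains, although the variant list makes 1545 of the CpGs tested a CG in 1 strain only. The deposited tables hold counts of methylated and of unmethylated reads per CpG and animal, as whole numbers without normalization. The deposited variant table holds base letters of mm9 and of the local B6 and C3 genomes, at single-base differences only. Depth was 22.2 to 36.8 counts per CpG and animal. Intervals of counting error take reads as independent.

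CpGs with at least 10 counts in all animals entered. Methylation was the summed methylated count over the summed count. A beta-binomial Wald test after DSS (in Python 3.11.15 with numpy 2.4.6 and scipy 1.17.1, without smoothing, with each group's dispersion shrunk to a prior over the table; 6 animals against 6) was run over 14726597 CpGs and called at p under 1e-05. Bins of 1 Mb with at least 20 solitary CpGs were tested with limma 3.58.1 (R 4.3.3) on log2 ratios of counts (pseudocount 1, Benjamini-Hochberg adjusted p under 0.05). Both tests are two-sided and were tested on simulated data. As an alternative, limma was run per CpG on log2 ratios. It called CpGs at an adjusted p under 0.05 and a difference of at least 20 points. Named single CpGs were the called ones with the widest difference whose animals did not overlap, up to 5 a direction between strains and 2 otherwise, with no group over 500 summed counts and depths within 5 times. Named bins were the 3 lowest and highest and up to 2 called a direction, and named genes the 5 lowest and highest. Members, lists and classes were chosen with earlier results of these data known. Gene positions came from the mm9 annotation and sequences from the mm9 genome. The hepatocyte-expressed genes with 5 or more but under 20 solitary CpGs are not reported here. Chromatin immunoprecipitation samples were not analysed here.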

Additional observations from a re-analysis of the deposited data

Results flagged for a closer look

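In 54 groups of 6 animals examined for 1 animal standing far from the rest (Dixon's ratio at the 95% level, which chance passes in about 1 of 20 groups), 4 were marked, all at single named CpGs. At the Sntg1 flank, 1 C3 dam had 3.45% where the other C3 animals had 0%. At the A530084C06Rik flank, 1 B6 dam had 48.4%, above the other B6 animals. At the Magi1 flank, 1 C3 dam had 92.6%, above the other C3 animals. At the Fam84b flank, 1 C3B6F1 daughter had 69.6%, below the other daughters. The groups compared did not overlap at these CpGs with that animal included, but this was a condition for naming a CpG and so says nothing about these animals.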

How the results depend on the processing

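Of 81 alternatives other than leaving out an animal, 52 stayed within 1.5 times of the reported share or within 1 SD of the reported value, as did 182 of 216 values without 1 animal, and the causes of the other shifts were not tested. At p under 1e-04 the share of solitary CpGs called was 0.0203% between the crosses, 0.294% between sires and dams, 0.0418% between dams and daughters and 0.0114% between sires and sons. The shares over all CpGs tested at that p are not reported here. With isolation over 250 bp the share at p under 1e-05 was 0.00179% between the crosses, 0.0263% between dams and daughters and 0.00161% between sires and sons. Over 1000 bp, with only 3354 CpGs, it was 1.61% between the strains, 0.0298% between dams and daughters and 0.0596% between sons and daughters. There it was 0% between the crosses and between sires and sons. Over all CpGs tested, whatever the isolation, these 5 shares were 0.653%, 0.0447%, 0.119%, 0.00397% and 0.00186%. With no other CG of mm9 within 500 bp the strain share was 0.469%. limma per CpG called 0% between the crosses and between sires and sons, with or without the replicate block. Without its minimum difference, 4226 to 4608 solitary CpGs (5.36% to 5.84%) had an unadjusted p under 0.05, against 5.44% to 5.76% of all CpGs tested. Bins with at least 50 solitary CpGs gave 26.7% for dams against daughters and 5.53% for sires against sons, and CpGs with at least 20 counts gave 3.02% and 0.604%. The solitary level was 73% with at least 20 counts, 75.6% over 250 bp and 71% over 1000 bp, and its gap to all CpGs −6.83, −2.97 and −7.57 points, and −4.43 points as a mean of percentages. The SD beyond counting error was 1.86 points over 1000 bp.

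Without 1 animal, the share of CpGs called ran from 0.754% to 0.835% between the strains, 0.00254% to 0.00761% between the crosses, 0.139% to 0.169% between sires and dams, 0.0127% to 0.0203% between dams and daughters, 0% to 0.0038% between sires and sons and 0.0837% to 0.11% between sons and daughters. The share of bins ran, in the same order, from 31.1% to 39%, 0% to 0.0756%, 65.6% to 72.1%, 0.983% to 8.77%, 0.0756% to 2.49% and 0% to 0.227%. The level ran from 73.5% to 73.7%, the gap from −4.96 to −4.87 points and the SD from 1.64 to 1.68 points.

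The animal numbers of the labels were not stated to mark families. Deviations from the group means of same-numbered animals correlated at −0.0873 to 0.119 over 84 pairs, 1 over 0.1. Pairs of different number gave −0.0998 to 0.0951 over 168 pairs. Of 24 animals 14 correlated best with their own number, and the count that chance gives was not computed. Equal numbers were paired across both crosses, whose families differ, so neither these correlations nor the replicate block can show or exclude a family effect. With the replicate block, the shares of bins called in the order above were 39.8%, 0%, 72.7%, 8.09%, 1.74% and 0%, and those of CpGs by limma, after 788 CpGs between the strains (792 without the block), were 0%, 0.203%, 0.0165%, 0% and 0.101%. Over all CpGs tested limma with the block gave 0.737%, 0.000448%, 0.236%, 0.0308%, 0.000591% and 0.111% in that order, strains first.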
